A study of Mus musculus with 2 samples.

Results

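The tallest peaks of a Myc-Tag ChIP-seq in Lck-Dlx5 T-cell lymphoma are described here, limited to those that were not also called in the input. An interval was taken when its summit height was 25 or more, its chromosome was any autosome other than chromosome 15, and no input interval had the same coordinates. The set was therefore chosen by the measured heights themselves. It holds 257 of the 3477 deposited Myc-Tag intervals, which is 8.11% of the 3167 intervals on the same 18 autosomes that were not called in the input. The remaining 2910 of those 3167 serve below as the other intervals. All 28 input intervals have exactly the coordinates of a Myc-Tag interval. That none of them overlapped any of the 257 by even 1 bp therefore follows from the rule.

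The material came from mice in which the Lck promoter, active in thymocytes, drives a Dlx5 transgene whose product carries a Myc-Tag. The Myc-Tag group is 1 library of DNA captured with an antibody against the tag, labelled C57BL/6, and the Input group is 1 library labelled C57BL/7; both carry the transgene, and both are labelled as a primary tumor, whereas the methods name the cell line F85-786 and an IgG control. No untreated or transgene-free chromatin was analysed here. The height is a score without a stated normalization, its depth is unknown, and with 1 library per group no difference below has a replicate check or a test. Percentages are given with 95% Wilson intervals, which cover counting error only.

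Dlx5 is a homeodomain transcription factor of skeletal and craniofacial development, and the proteins of its family recognize a core of TAATT, or AATTA when read on the opposite strand. Clustered histone genes, whose short intronless transcripts are made while DNA is replicated, are described below. So are the genes annotated as small nuclear RNAs (snRNAs), a class that includes the RNAs of the splicing machinery. Of the 257 summits, 10 lay at histone genes (3.89%) and 12 at snRNA genes (4.67%), against 1.10% and 0.515% of the other intervals. The lymphoma was checked against marker genes of T cells and other cell types. Of 12 T-cell markers, 7 had an interval of any height in the gene or the 10 kb around it, namely Bcl11b, Cd3d, Cd3g, Cd4, Cd8b1, Lck and Tcf7. Of 19 markers of other cell types, 5 had one, with heights from 11 to 18, among them Cd79a, Klf1, Pax5 and Pdgfra; 16 of the 19 lie on the 18 autosomes and are counted again with the gene lists. Of all 21900 coding genes, 4168 (19%) had such an interval. No gene of either list had an interval among the 257. An interval is no measure of expression, so the label of the lymphoma was not tested by these counts.

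For 89 of the 257 intervals the summit lay inside the promoter of a coding or long noncoding gene in the RefSeq promoter table of GRCm38.p6, which spans 250 bases before to 50 bases after a start. The 3 tallest of these with TAATT before the start are shown first, each as 30 bases on the strand of the gene with TAATT or AATTA in capitals (a final A in capitals comes from an overlapping AATTA). The Arhgap1 site is at chr2:91650024-91650053, the Mrpl28 site at chr17:26123392-26123421 and the Jarid2 site at chr13:44731204-44731233, all on the plus strand. The Arhgap1 site also lies in the first bases of Zfp408, which is read the other way, and Jarid2 has another annotated start further upstream.
Arhgap1: ggacagctcggcTAATTAacctcacatttt
Mrpl28: attcgcagtagaTAATTtttcatggtccct
Jarid2: cgggaggtggcgAATTAgccgaggagccct
The center of the motif was 22 bp from the summit at Arhgap1, 18 bp from it at Mrpl28 and 146 bp from it at Jarid2. Arhgap1 encodes a GTPase-activating protein, Mrpl28 a protein of the mitochondrial ribosome, and Jarid2 a partner of the Polycomb repressive complex that methylates histone H3. Their summit heights were 66, 47 and 45.

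Whole upstream stretches of 250 bases, 5′ to 3′ on the strand of the gene, show how different such promoters are in composition. They were taken from the 33 promoters whose 250 bases overlap no coding gene. Ppp3cb is the tallest of these with TAATT, Proser1 and Mapkapk5 are the tallest without it, and Zwint is the one with TGACGTCA, the cAMP response element; capitals mark TAATT or AATTA in Ppp3cb and TGACGTCA in Zwint.
Ppp3cb: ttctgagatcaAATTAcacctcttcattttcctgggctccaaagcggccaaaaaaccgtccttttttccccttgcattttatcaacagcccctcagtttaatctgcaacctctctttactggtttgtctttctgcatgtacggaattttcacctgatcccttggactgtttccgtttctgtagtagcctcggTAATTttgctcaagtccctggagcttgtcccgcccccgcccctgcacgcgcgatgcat
Proser1: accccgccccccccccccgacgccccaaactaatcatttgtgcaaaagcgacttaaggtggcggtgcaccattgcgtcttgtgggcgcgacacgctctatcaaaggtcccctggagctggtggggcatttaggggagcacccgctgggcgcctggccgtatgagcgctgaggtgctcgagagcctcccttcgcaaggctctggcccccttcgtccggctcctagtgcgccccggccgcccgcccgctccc
Mapkapk5: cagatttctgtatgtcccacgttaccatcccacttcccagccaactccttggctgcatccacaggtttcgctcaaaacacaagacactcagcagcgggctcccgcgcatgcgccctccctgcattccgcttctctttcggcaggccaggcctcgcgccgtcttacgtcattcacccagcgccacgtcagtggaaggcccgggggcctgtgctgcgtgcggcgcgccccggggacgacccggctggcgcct
Zwint: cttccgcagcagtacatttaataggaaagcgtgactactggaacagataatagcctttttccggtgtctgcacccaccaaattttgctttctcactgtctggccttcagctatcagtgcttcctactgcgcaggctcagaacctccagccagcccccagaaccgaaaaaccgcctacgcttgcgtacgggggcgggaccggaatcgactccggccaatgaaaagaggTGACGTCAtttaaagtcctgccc
The Ppp3cb stretch, chr14:20546574-20546823 on the minus strand, is 48.4% G and C, with 10 CpG dinucleotides. Proser1, chr3:53463545-53463794 on the plus strand, has 67.6% G and C and 22 CpG dinucleotides. Mapkapk5, chr5:121545893-121546142 on the minus strand, has 65.2% and 23 of them. Zwint, chr10:72654596-72654845 on the plus strand, has 53.2% and 14. Summit heights were 36 at Ppp3cb, which encodes a catalytic subunit of calcineurin, 48 at Proser1 and at the kinase gene Mapkapk5, and 26 at Zwint, a kinetochore gene. The summits were 19, 115, 28 and 222 bp before the start, in that order.

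Over all 89 promoters, TAATT on either strand of the 300 bases was found in 17, or 19.1% (12.3 to 28.5%). It was found in 96 of the 718 promoters that hold a summit of the other intervals, or 13.4% (11.1 to 16.1%), and in 27.0% of all 32851 promoters of the table. The longer word TAATTA was in 3 of the 89 (3.37%). Base composition moved with these shares. The median G and C content was 62.3% in the 89 promoters, 63.0% in the 718 and 52.7% in the whole table, and the median number of CpG dinucleotides was 24, 25 and 7. Among promoters under 55% G and C, 8 of 16 held TAATT (50%, 28 to 72%), against 37.1% for the other intervals and 40.7% of the table. At 55 to 65% the shares were 8 of 42 (19%, 9.98 to 33.3%), 13.4% and 13.4%. At 65% and above, 1 of 31 held it (3.23%), against 2.59% and 3.44%. The intervals overlap in each of the 3 bands, and a promoter with TAATT was less frequent the more G and C it contained.

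The other words searched were read on both strands in the same 300 bases. TGACGTCA was in 8 of the 89 promoters (8.99%, 4.63 to 16.7%), in 3.48% (2.37 to 5.09%) of the 718 and in 1.79% of all promoters. CCGGAAG, a core of Ets factors, was in 23.6%, 28.1% and 8.86%. GGGCGG, the GC box, was in 68.5%, 67.7% and 35.7%. CCAAT was in 28.1%, 33.3% and 37.4%, the E-box CACGTG in 7.87%, 11.3% and 7.15%, and GCGCATGC in 4.49%, 6.96% and 2.71%. TATAAA, the TATA box, was in 1 of the 89 (1.12%), in 5.85% of the 718 and in 13.6% of all. TAATTA contains TAATT and AATTA, and other words can share bases at their ends. None was tested, and a match is not a site of binding.

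Summit heights ranged from 25 to 73, with a median of 29 and quartiles of 26 and 35. Only 117 of the 257 reached 30, 32 reached 40, 13 reached 50 and 6 reached 60. The edge of the rule runs through a dense part of the distribution, as 58 intervals had a height of 24, just outside, and 38 a height of 25, just inside. On chromosome 15, which the rule leaves out, 45 further intervals reached 25 without being called in the input. On the 18 autosomes, 23 intervals reached 25 but were called in the input. The median width of the 257 was 794 bp (quartiles 680 and 1006 bp) against 730 bp in the other intervals, a measure of the same peaks that is not independent of their height.

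The summits fell at 5 kinds of position. A start of a protein-coding gene lay within 1 kb of 137 of the 257 (53.3%, 47.2 to 59.3%), a small RNA gene of 12 more (4.67%) and another noncoding gene of 9 (3.50%). Of the rest, 46 were inside a coding gene (17.9%) and 53 outside any (20.6%, 16.1 to 26%). Among the other intervals 64.5% (62.8 to 66.3%) lay at a coding start and 13.8% (12.6 to 15.1%) outside genes. Over the 257 the share at a coding start was thus lower than in the other intervals, and the intergenic share higher, by more than the counting error and without a test. The intergenic share was 22.4% (17.1 to 28.8%) at heights of 25 to 34 and 15.4% (8.58 to 26.1%) at 35 to 73, so that in the upper band its interval contains the share of the other intervals. At a minimum height of 30 the share at a coding start was 56.4% (47.4 to 65.1%), an interval that reaches the share of the other intervals. The difference lay away from the start itself: within 250 bp the shares were 42.4% (36.5 to 48.5%) and 44.0% (42.2 to 45.8%), and between 250 bp and 1 kb they were 10.9% (7.65 to 15.3%) and 20.5% (19.1 to 22.1%). A coding start was taken from the promoter table where the gene is in it, and from both gene ends otherwise, since the gene table gives no strand. Other annotated starts of a gene in the promoter table were not used, so a summit counted as away from a start can lie at one of those. When the 5′ end of each such gene was added, 5 more of the 257 lay at a coding start, and the shares were 55.3% (49.1 to 61.2%) and 65.4% (63.6 to 67.1%).

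**Figure D1:**
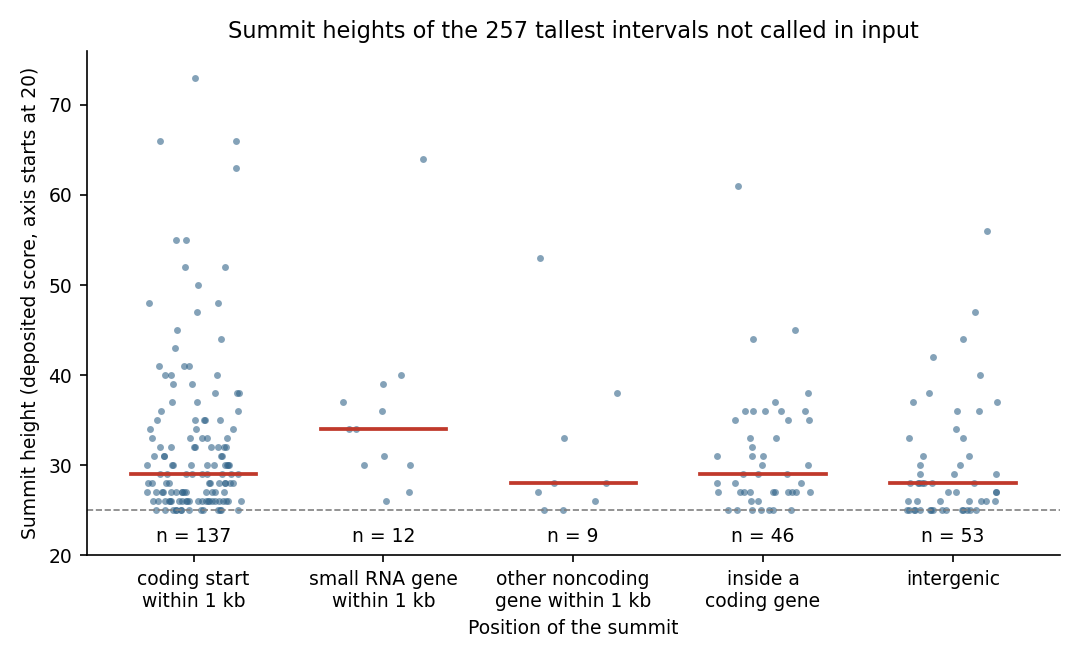
Summit height (deposited score) of each of the 257 intervals, 1 point each, by the position of the summit; red bars are medians and the dashed line is the minimum height of 25. Medians were 29 at coding starts and inside coding genes, 34 at small RNA genes and 28 at other noncoding genes and between genes.

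Among the 30 tallest summits, coding starts were the most frequent position. The tallest, with a height of 73, was at the linker histone gene H1f2, and is described with the histone genes. Arhgap1 and the zinc finger gene Zfp408, which start within 1 kb of one summit, shared a height of 66. Adnp, which encodes a chromatin remodeling factor with a homeodomain, also reached 66, in an interval at chr2:168206941-168208038, and a second of the 257 with a height of 29 lay 1083 bp away inside the gene. Tpra1, a membrane protein gene, followed with 63. Ewsr1, an RNA-binding protein gene rearranged in Ewing sarcoma, shared a summit of 52 with Rhbdd3, and Rbak shared another of 52 with Spdye4b. The dynein light intermediate chain gene Dync1li2 had 50, Nhlrc3 and Proser1 shared 48, and Mapkapk5 had 48. None of these genes is on the list of T-cell genes.

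Mrpl28 had a summit of 47 and Mrps5, a gene of the small mitochondrial subunit, shared one of 41 with Zfp661. Trap1, a mitochondrial chaperone gene, had 41. Acap3 and Pusl1 shared 44, Cenpb, which encodes a centromere protein, had 40, and the variant histone gene H2ax, which marks DNA breaks once phosphorylated, shared 41 with Dpagt1. Ppp6r3 had 40 in an interval that also holds the alanine tRNA gene n-TAagc9, whose 73 bases contain the summit.

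Away from coding starts the tallest summit was at an snRNA gene, Rnu11, with 64. Slc6a6, the taurine transporter gene, held a summit of 61 at chr6:91707328-91708097, inside the gene and 23696 bp from its nearer end. Ctdsp1, which encodes a phosphatase of RNA polymerase II, was nearest to a summit of 56 that lay 4665 bp before its start. The glypican gene Gpc5 held a summit of 45 that was 380569 bp into the gene. Mef2a, a MADS-box transcription factor gene, was nearest to a summit of 44 at a distance of 105350 bp. The prolactin family gene Prl5a1 was nearest to 42, at a distance of 275244 bp. Tex14 held a summit of 40 that lay 28 bp from the snRNA gene Gm22068.

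In all, 120 of the 257 were over 1 kb from a coding start, and 30 were over 50 kb from one (11.7%, 8.30 to 16.2%), against 7.84% (6.91 to 8.87%) of the other intervals. The distal summits nearest to genes of T-cell biology were looked up after their values were seen. Lef1, a T-cell transcription factor, was the nearest coding gene to 2 of them, with heights of 31 and 28, at 162841 and 95769 bp before its start. Cd28, the costimulatory receptor, was nearest to one of 29 at 88580 bp, and Nfkbia, the inhibitor of NF-kappaB, to one of 33 at 45735 bp. Nearness on the chromosome does not show which gene a region acts on.

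Where a summit lay within 1 kb of a start with a known strand, its side was compared. Of the 117 such summits among the tallest, 81 lay before the start (69.2%, 60.4 to 76.9%), against 641 of 1569 among the other intervals (40.9%, 38.4 to 43.3%). The median position was 46 bp before the start in the first (quartiles 126 bp before and 30 bp after) and 48 bp after it in the second (98 bp before and 192 bp after). The difference stayed when starts of divergent gene pairs were left out (70% against 41.5%), when histone genes were left out (73.1% against 41.5%) and within 250 bp of a start (74.2% against 43.6%). By height, the share before the start was 32.5% (27.6 to 37.8%) for heights of 9 to 12, 39% for 13 to 15, 41.9% for 16 to 18, 51.7% (46 to 57.2%) for 19 to 24, 67.0% (56.7 to 76%) for 25 to 34 and 75.9% (57.9 to 87.8%) for 35 to 73. The order depends on how heights are divided, since the share was 64.9% (51.9 to 76%) over all heights of 30 and more, below that over all heights of 25 and more. With the 5′ ends of genes added to the starts, the shares were 63.1% (54.3 to 71.2%) for the tallest and 37.5% (35.1 to 39.9%) for the others. All 257 summits lay on a multiple of 16 bp, as did 2773 of the 2910 others (95.3%), so a shift of this size spans only a few positions of the deposited grid.

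**Figure D2:**
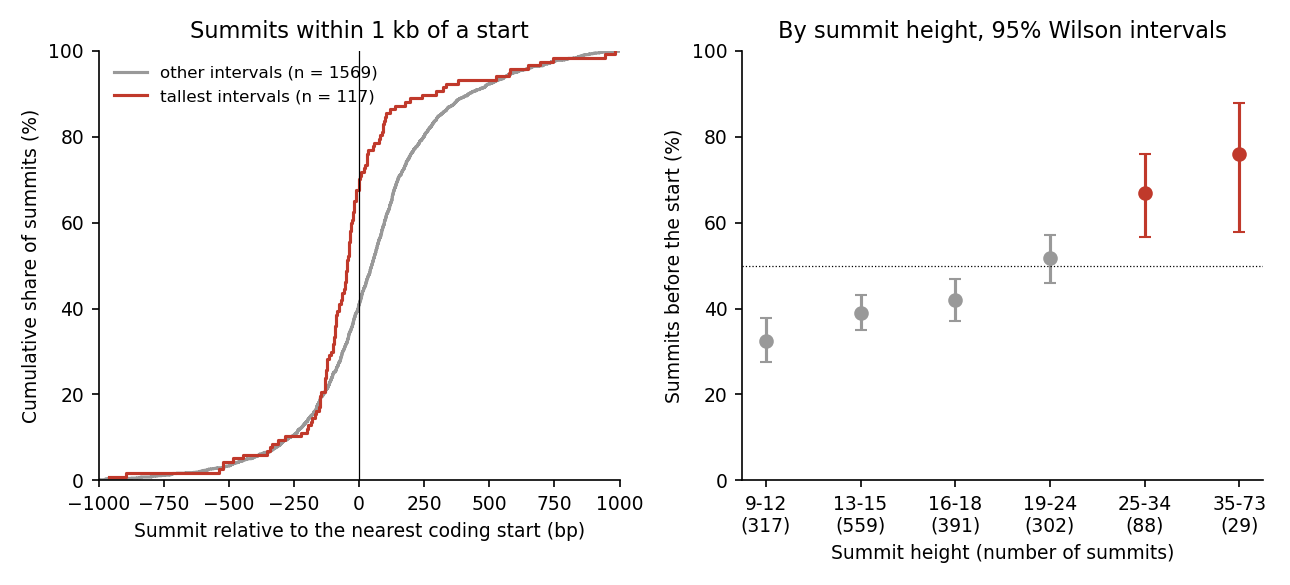
Left, cumulative share (%) of summits by their distance in bp from the nearest coding start, negative values lying before it, for 117 of the tallest intervals and 1569 other intervals. Right, share of summits before the start by summit height with 95% Wilson intervals, red for heights of 25 and more; it was 32.5% at heights of 9 to 12 and 75.9% at 35 to 73.

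Of 64 clustered histone genes on the 18 autosomes, 13 had a summit of the 257 within 1 kb of the start, beside 162 of all 19889 coding genes (0.815%). Some of the 13 share a summit, so that 10 intervals account for them. With any interval not called in the input, the counts were 48 of 64 and 2262 of 19889 (11.4%). The histone list was chosen with these summits known, so the count describes it and supports nothing further. Some histone genes of one class have close copies, and which of the genes named here do was not examined. How reads that fit several copies were placed is not given in the sources used here, so the heights at single genes are uncertain.

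The 4 tallest summits at histone genes lay within 1 kb of the start of a linker histone gene. H1 binds the DNA between nucleosomes and compacts chromatin. Of the 6 H1 genes on the list, 5 had a summit among the tallest, all but H1f6, and of the 58 core histone genes 8 had one. H1f2 had the tallest of all, 73, in an interval of 2149 bp at chr13:23738597-23740745. H1f3 and H1f5 both had 55, in intervals of 1886 and 2184 bp, H1f4 had 43 and H1f1 had 26. H1f5 and H3c11 lie 1331 bp apart by their intervals. Among core genes the summits had heights of 35 at H3c1 and H4c1, which share one, 34 at H3c11, 33 at H3c15, 30 at H4c8 and 26 at H2bc18 and H3c13, which share one. H2bc6 also starts within 1 kb of the H1f4 summit, at 522 bp and so nearer to it than the H1f4 start at 942 bp, and the H1f1 summit was no taller than the lowest of the core genes.

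Most summits of the H1 genes lay toward the far end of the gene. At H1f2 the summit was 745 bp after the start and 21 bp beyond the annotated end of a gene of 725 bp. At H1f5 it was 945 bp after the start and 152 bp beyond the end, and at H1f4 942 and 161 bp. At H1f3 it was 648 bp after the start and still 127 bp inside the end, and at H1f1 332 bp after the start, nearer to it than to the end. In 4 of the 5 H1 genes, and in 7 of 11 histone genes with one of the tallest summits, a known strand and a length under 2 kb, the summit was thus nearer to the 3′ end than to the start. H3c1, also under 2 kb long, was left out because its strand was not known here. Lower histone intervals gave 25 of 47 pairs of gene and summit. Only 2 of the 13 genes kept one of the tallest summits within 250 bp of the start. Neighbouring histone genes are short and close together, and summits between them were assigned to each start within 1 kb.

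**Figure D3:**
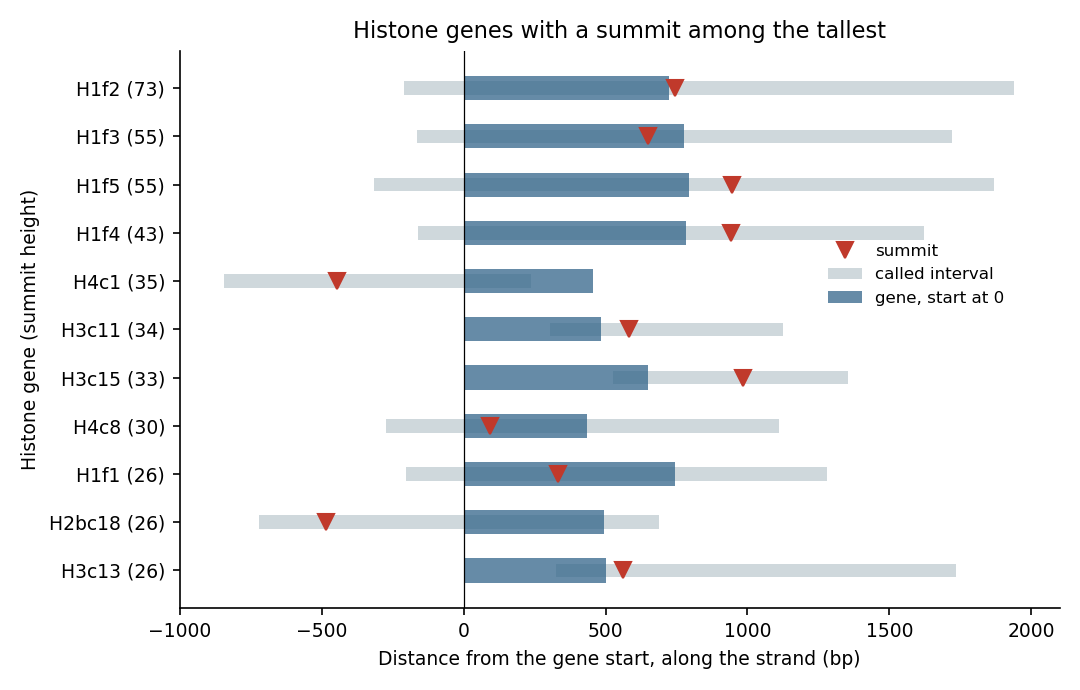
Histone genes under 2 kb long with a known strand (H3c1 is left out) and one of the tallest summits, drawn from the gene start (0 bp) along the strand: gene in blue, called interval in grey, summit as a red triangle, with the summit height after the name. In H1f2, H1f4 and H1f5 the summit lies beyond the end of the gene, and the 5 H1 intervals cover their genes whole.

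Genes of snRNAs were the other small group. Among 887 annotated snRNA genes, 13 (1.47%) had one of the 257 within 1 kb of an end of the gene, from 12 intervals, and 29 had an interval of any height. Of the 27 intervals at an snRNA gene, 12 reached a height of 25 (44.4%, 27.6 to 62.7%), whereas 8.11% of all intervals did. Rnu11, the U11 RNA of the minor spliceosome, was the tallest, with a summit of 64 inside its 108 bases at chr4:132270079-132270186. In 11 of the 13 the summit lay inside the gene or within 110 bp of it. Strand is not given for these genes, so the side was not read. Their sequences were not analysed here.

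Several of the other snRNA genes share a length. Rnu1a1, a U1 gene of 164 bases, had a summit of 34, and Gm22068 of the same size had 40, the 2 intervals being 2501 bp apart on chromosome 11. The genes Gm25099, Gm25313, Gm23143 and Gm22265 all have 116 bases, with heights of 39, 37, 34 and 27. Gm24407 and Gm24265, both of 141 bases, share a summit of 36 that lies 14 bp from the first. Gm23444 and LOC115487916, both of 191 bases, had 31 and 30. Gm24283 had 29, from a summit 836 bp away from it that lay 31 bp before the start of the coding gene Klhdc4. Rnu3a, which is annotated as an snRNA gene but encodes the U3 RNA of ribosomal RNA processing, had 28. Like some histone genes, many snRNA genes have near-identical copies elsewhere. Which of the genes named here do was not examined, so their heights are uncertain in the same way.

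At other small RNA genes the share reaching 25 was lower, and its interval contains the general 8.11%. At snoRNA genes, which guide the modification of ribosomal RNA, 3 of 25 intervals reached 25 (12%, 4.17 to 30%), including Snord118, the U8 RNA, with 30. At tRNA genes it was 3 of 33 (9.09%, 3.14 to 23.6%), at long noncoding RNA genes 22 of 349 (6.30%, 4.20 to 9.36%) and at miRNA genes 2 of 20, Mir7b and Mir762. Histone genes gave 10 of 42 (23.8%, 13.5 to 38.5%), coding starts as a whole 137 of 2015 (6.80%, 5.78 to 7.98%) and intergenic summits 53 of 454 (11.7%, 9.04 to 15%).

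**Figure D4:**
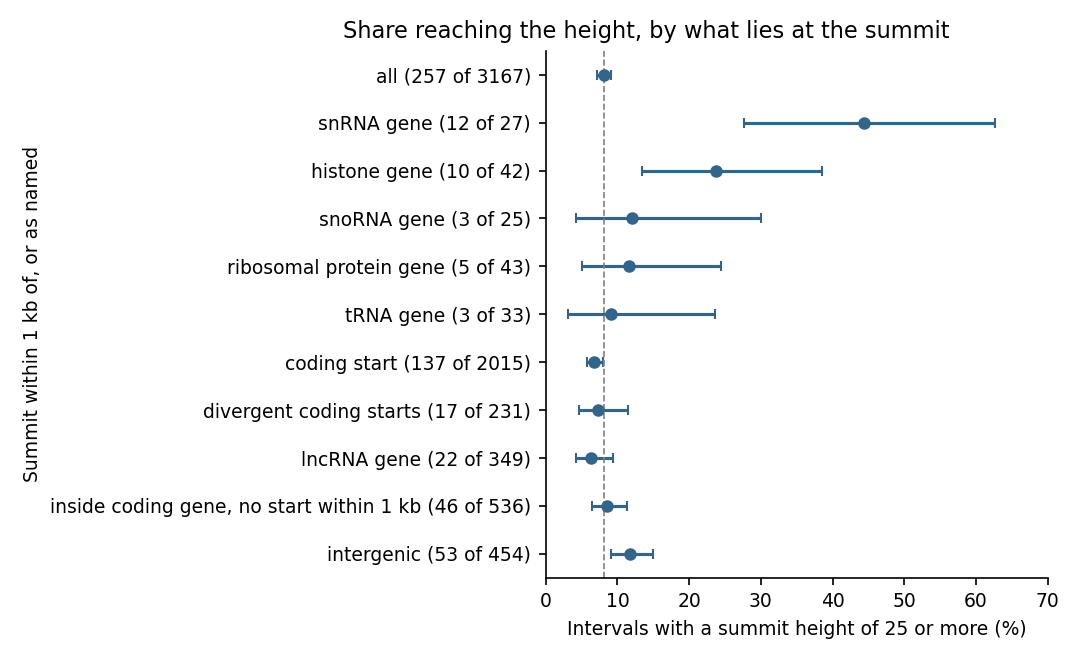
Share (%) of the intervals of each kind whose summit height was 25 or more, with 95% Wilson intervals and the counts in brackets; the dashed line is the share of all 3167 intervals, 8.11%. The share was 44.4% at snRNA genes and 23.8% at histone genes, and between 6.30% and 12% at the other kinds drawn.

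Cytosolic ribosomal protein genes had 5 of 78 with one of the tallest summits at the start, Rps12 and Rpl18 with 30, Rpl21 with 28, Rpl10a with 26 and Rps3a1 with 25, and 41 of 78 with any interval. In Rps3a1 the summit was 68 bp before the start. No gene of the remaining lists had one at its start. The counts were 0 of 45 T-cell genes, 0 of 20 Notch pathway genes, 0 of 20 genes of the Irs and Akt pathways, 0 of 24 cell cycle genes, 0 of 10 Myc and Max genes, 0 of 29 immediate early and NF-kappaB genes, 0 of 17 snoRNA host genes, 0 of 16 markers of other cell types and 0 of the 6 Dlx genes. The lists are short beside a general share of 0.815%, so a count of 0 says little about any of them. Intervals of any height were at 11 of the 45 T-cell genes, 7 of the 20 Notch genes, 6 of the 20 Irs and Akt genes, 6 of the 24 cell cycle genes, 1 of the 10 Myc and Max genes, 6 of the 29 immediate early and NF-kappaB genes, 5 of the 17 snoRNA host genes and none of the markers of other cell types or the Dlx genes. These counts stand beside 11.4% of all coding genes.

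Counted over the gene body and 10 kb on either side, 374 of 19889 coding genes (1.88%) had one of the 257. Among them were Ikzf1, Ikzf3, Rptor, Ccnd1 and Cdc25b of the lists with no such summit at a start, named here after their values were seen. Ikzf1 and Ikzf3, which encode lymphoid zinc finger factors, had heights of 25, the Ikzf1 summit lying 6981 bp before the start and the Ikzf3 summit lying inside another gene within the 10 kb. Rptor, a subunit of the mTOR complex, had 25. Ccnd1, which encodes cyclin D1 and which the paper names as a Dlx5 target, had 25 in a summit 1865 bp from its nearer end. Cdc25b had 40, from the interval at the Cenpb start. All of these heights but that at Cdc25b are at the lowest value that the rule admits.

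Some of the intervals stood close to another. Of the 257, 52 had a Myc-Tag interval closer than 10 kb (20.2%, 15.8 to 25.6%), against 14.7% (13.5 to 16.1%) of the other intervals. In 47 of the 52 the neighbour was lower, in 8 it was itself one of the 257, and in 1 it was called in the input. A neighbour that is neither one of the 257 nor called in the input is lower by the rule of selection. The count of 47 therefore follows largely from that rule. Closer than 2 kb the shares were 5.84% and 7.11%. By chromosome, the number per 100 coding genes ranged from 0.391 to 2.05 over the 18 autosomes and was highest on chromosomes 11 and 13. Chromosome 11 had 33 of its 284 intervals among the tallest (11.6%, 8.39 to 15.9%), against 8.11% of all 3167 intervals. Chromosomes 6 and 18 lay below that share, with 6 of 180 (3.33%, 1.54 to 7.08%) and 2 of 100 (2%, 0.55 to 7%). On chromosome 13 the share was 10.5% (6.66 to 16.2%). There and on the remaining autosomes the 95% interval contains 8.11%.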

How the data were processed

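The authors deposited browser tracks with the intervals and summits of 1 Myc-Tag library and 1 input library, made by Active Motif on an Illumina GA II, where MACS p-values served to call peaks. The submitters' processing notes name BWA and mm9, and the study's browser view names mm10. Of the 3477 Myc-Tag summits, 62.8% lay within 1 kb of a GRCm38 coding start, so coordinates were read on GRCm38 (mm10). The same share was not computed for mm9. The deposited height is a score, given in whole numbers with no normalization stated; its calling threshold is not given in the sources used here, and the methods name an IgG control without saying whether peaks were called against it. All 28 input intervals have the coordinates of a Myc-Tag interval. Interval starts are counted from 1; summits are printed unchanged.

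Summits were matched to the intervals holding them and compared with RefSeq genes and promoters of GRCm38.p6. Strand and start were given for 17492 of 21900 coding genes; both gene ends served for the rest. No genome was used, so motifs were read in promoters. Named genes are the nearest coding gene, and the starts within 1 kb, of the 30 tallest summits, and listed genes with such a summit. A few genes under this rule are not reported here. The members and lists were chosen with earlier results of these data known. Intervals and shares were computed with Python 3.11.15, numpy 2.4.6, pandas 2.3.3 and scipy 1.17.1, figures with matplotlib 3.10.9, and the functions were tested on simulated data. Alternatives changed the minimum height, the chromosomes, the distances, the motif and the kind of start.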

Additional observations from a re-analysis of the deposited data

How the results depend on the processing

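No paired analysis was possible because neither the ChIP nor the input has replicates. Of 44 alternatives over 9 results, 27 stayed within 1.5 times a count or inside the 95% interval of a share or median. One that stayed, absence from the input by any overlap, could not change the number of 257, given the coordinates of the input intervals. The number of intervals was 630 at a minimum height of 20 and 117 at 30. The share at a coding start was 60.3% at a height of 20, 42.4% within 250 bp, 63.4% within 5 kb, 61.5% with all annotated genes and 47.1% with the starts of the promoter table alone. The motif share was 3.37% with TAATTA. The share with a close neighbour was 26.5% at a height of 30, 13.2% closer than 5 kb and 43.6% closer than 50 kb. Median width was 869 bp at a height of 30. The share before the start was 60.2% at a height of 20. Histone genes numbered 2 within 250 bp and 24 within 5 kb, and ribosomal protein genes 12 at a height of 20 and 2 at 30. The alternatives for the side of the start, for the gene counts and for which annotated starts of coding genes were used were chosen after seeing the data. The 2 planned motif windows around summits were not run without a genome. Depth is unknown, so no error can be given for a height.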

Other observations

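Genes of the mitochondrial ribosome, a list chosen after the summits were seen, had 5 of 77 with one of the tallest summits at the start, namely Mrpl28 (47), Mrps5 (41), Mrpl21 (34), Mrpl1 (31) and Mrps31 (29). The Mrpl21 summit was shared with Ighmbp2. An interval of any height lay at the start of 28 of the 77. Of all coding genes, 0.815% had one of the tallest summits at the start and 11.4% an interval of any height. Cytosolic ribosomal protein genes had nearly the same count among the tallest, 5 of 78, and 41 of 78 with any interval. Since both lists were described with the summits known, neither count has a test.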
